A study of Mus musculus with 6 samples.

Results

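H3K4me3 at the nuclear genes of oxidative phosphorylation was examined in cells labelled as CD8+ tumour-infiltrating lymphocytes. The set was taken from a RefSeq gene table of the GRCm38.p6 mouse assembly by symbol, as all protein-coding genes on chromosomes 1 to 19 and X that begin with Nduf, Uqcr, Cox4, Cox5, Cox6, Cox7, Cox8 or Atp5, or that are Sdha, Sdhb, Sdhc, Sdhd or Cyc1. It held 97 of 21627 protein-coding genes, namely 39 genes of complex I, 8 of its assembly factors, 4 of complex II, 9 of complex III, 20 of complex IV and 17 of complex V. The cells had infiltrated E0771 tumours, a mouse mammary tumour line, in C57BL/6 mice that were either wild type or carried a Cre-mediated deletion of Atg5, a gene needed to form autophagosomes. The labels name neither the promoter that drives Cre, nor the cells in which it acts, nor the age of the animals, nor how many animals gave cells. Chromatin was cut with micrococcal nuclease and precipitated without fixation being mentioned, and each genotype had 1 H3K4me3 library. The series lists 6 samples, of which the 2 H3K4me3 region lists were used. Differences between the genotypes therefore have no replicate check, and no test was made.

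Oxidative phosphorylation takes place in the inner mitochondrial membrane. Complexes I and II feed electrons from NADH and succinate to ubiquinone, complex III passes them to cytochrome c, complex IV reduces oxygen, and complex V uses the resulting proton gradient to make ATP. Most subunits are encoded in the nucleus and are used by nearly all cell types, while a few have isoforms restricted to muscle, lung or testis. CD8+ T cells draw on this pathway for survival and memory and on glycolysis during the effector response. H3K4me3 is a histone mark laid down around the starts of genes that are transcribed or poised, mostly at promoters rich in CpG.

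The wild-type list held 48525 H3K4me3 regions on chromosomes 1 to 19 and X and the knockout list 46547. Their median widths were 1103 and 1130 bp. The deleted gene Atg5 had 2926 bp under regions within 2.5 kb of its start in wild-type and 2705 bp in knockout cells, and since the labels do not give the deleted part this does not check the labels. The labelled cell type was checked against its markers. Of 15 T cell genes, only 5 had a wild-type region within 1 kb of their 5′ end, while all 15 had a knockout region. The summed length under regions for these markers was 7045 bp in wild-type and 65279 bp in knockout cells. Of these sums, 2339 and 4605 bp lay at Tcf7, which was marked in both lists. Cd3e, Cd8a, Cd2, Cd6, Lat, Zap70 and Bcl11b were at 0 bp in the wild type, so defining markers of CD8+ T cells were absent from that list. The library labelled wild type thus goes against its labelled cell type, and it is called wild type below by its label alone. Of the 8 epithelial and mammary tumour markers 7 had a region in each list, with 10055 and 13720 bp summed, and all 9 myeloid markers had one in each list, with 19333 and 18378 bp. Of the 9 fibroblast and endothelial markers 6 had a region in wild-type and 7 in knockout cells, with 18007 and 14089 bp. Most of these marks were weak. Median reads at the highest point (summit) were 19 and 25 for marked epithelial genes, and 19 and 19 for myeloid genes. They were 45 and 27 for fibroblast and endothelial genes, and 16 and 85 for T cell genes. Among the T cell genes Tcf7 stood apart from the wild-type median, with 100 and 88 reads. Over all marked genes the medians were 111 and 117 reads. These marker levels move with genotype, and their part in every difference given for the oxidative phosphorylation genes was not tested. Genotype, cell make-up and library cannot be told apart.

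Nearly all genes of the pathway carried H3K4me3 at their 5′ end in both genotypes. A region lay within 1 kb of the 5′ end of 89 of 97 genes in the wild type (91.8%, exact 95% interval 84.4 to 96.4%) and of 90 of 97 in the knockout (92.8%, 85.7 to 97.0%). The same held for 60.3% of all protein-coding genes in wild-type and 61.8% in knockout cells. The 89 genes marked in the wild type were all marked in the knockout. The testis isoform gene Cox6b2 was marked in the knockout only, as were 3.28% of all protein-coding genes. Marks in the wild type only were found at none of the 97 genes and at 1.68% of all. The 7 genes marked in neither list, against 36.5% of all genes, were Ndufb4b, Ndufb4c, Cox4i2, Cox6a2, Cox7b2, Cox8b and Cox8c. Every gene of complexes II, III and V and every complex I assembly factor was marked in both lists, so the unmarked genes were 2 of 39 in complex I and 5 of 20 in complex IV. The intervals here and below cover counting error only.

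Regions at these genes differed little in median length between the genotypes. The covered length of a gene here counts the bp that lie under regions in a window reaching 2.5 kb to each side of its 5′ end. Over the 90 genes covered in at least 1 list the median was 2619.5 bp in wild-type and 2573 bp in knockout cells, beside 2442 and 2464 bp over the 14380 covered protein-coding genes. Values ran from 1069 bp at Cox7a1 to 4329 bp at Uqcrh in the wild type, leaving out Cox6b2, and from 939 bp at Cox7a1 to 4303 bp at Uqcrh in the knockout. In the knockout 35 of 90 genes had longer coverage and 55 shorter coverage, against 46.6% and 52.4% of all covered genes. The median difference, knockout minus wild type, was -33 bp, and over all covered genes it was -18 bp. Where a gene is followed by 2 values, the wild type comes first. The plot of covered length by gene shows that most pairs of values lie close together.

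**Figure D1:**
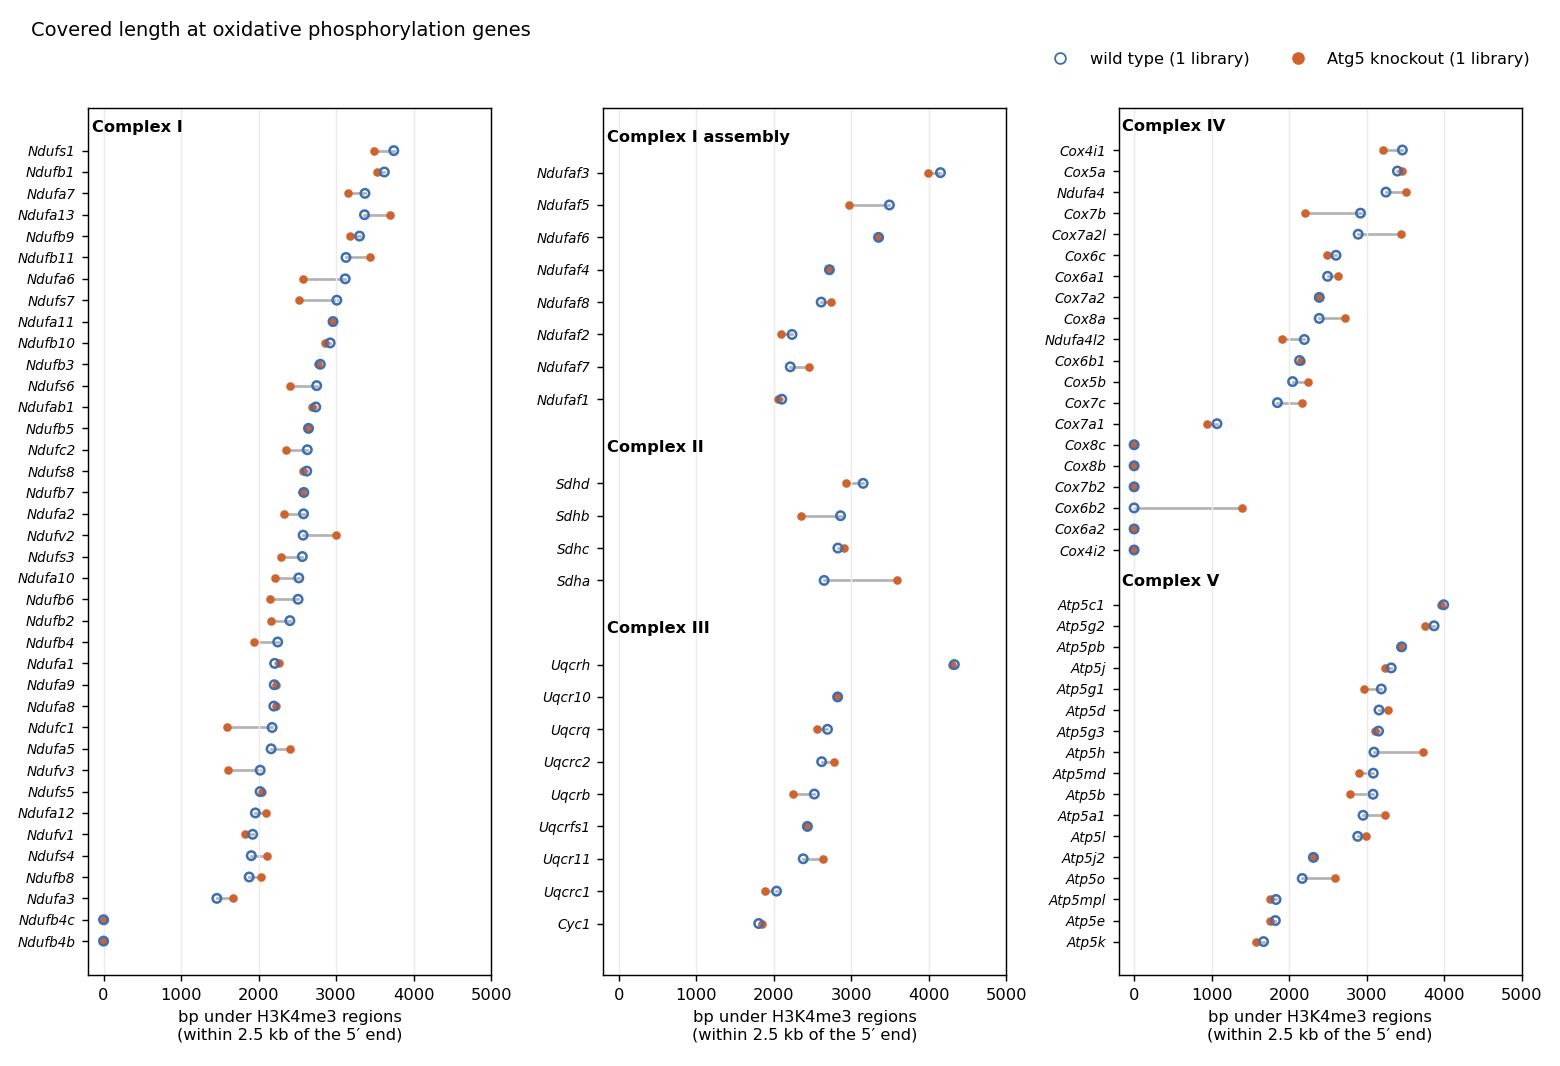
Covered length (bp under H3K4me3 regions within 2.5 kb of the 5′ end, x axis) for 96 of the 97 oxidative phosphorylation genes, by complex, in the wild-type library (open circles) and the Atg5 knockout library (filled circles), with 1 library per genotype and no error bars. Grey lines join the 2 values of a gene; Cox6b2, Sdha and Cox7b have the longest lines, and 7 genes are at 0 in both libraries.

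Differences of at least 500 bp were seen at 9 of the 90 covered genes, Cox6b2, Sdha, Atp5h and Cox7a2l on the longer side and Cox7b, Ndufc1, Ndufa6, Sdhb and Ndufaf5 on the shorter. Longer by this much in the knockout were 4 genes (4.44%), where all covered genes gave 14.9%. Shorter by this much were 5 genes (5.56%), where all covered genes gave 9.86%. The median size of the difference, whatever its direction, was 152 bp for the pathway and 243 bp for all covered genes, and 90.0% against 75.3% of genes lay within 500 bp. By complex, longer and shorter counts were 12 and 25 in complex I, 3 and 5 in its assembly factors, 2 and 2 in complex II, 3 and 6 in complex III, 9 and 6 in complex IV, and 6 and 11 in complex V. Complex IV was the class with more longer than shorter genes, and its median difference was 61 bp. The other medians ran from -70 bp in complex I to -24 bp in complex III. Within 1 kb of the 5′ end the median difference was 0 bp, and Cox6b2 was the only gene that differed by 500 bp or more there. Over all protein-coding genes that median was also 0 bp, and 1084 were longer and 341 shorter by this much.

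**Figure D2:**
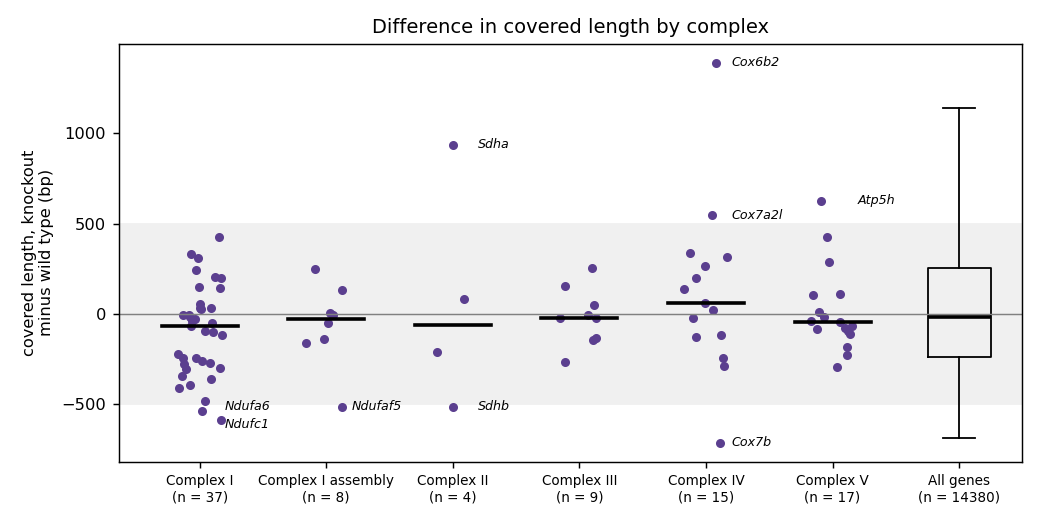
Difference in covered length (bp, knockout minus wild type, y axis) for each covered gene by complex, with black bars at the class medians; the box for all 14380 covered protein-coding genes gives the median and quartiles, with whiskers at the 5th and 95th percentiles. The grey band spans 500 bp in either direction, and the 9 named genes lie outside it.

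The regions lay over the start and reached further into the gene than before it. For 78 genes a RefSeq promoter table of the same build gave the strand and the start. Among those with a summit in the window, the summit lay inside the gene for 51 of 73 genes in the wild type, at a median of 168 bp after the start, and for 55 of 75 in the knockout, at 167 bp. These shares of 69.9% and 73.3% stand beside 64.6% and 67.7% over all genes with a strand, whose medians were 171 and 167 bp. Marked genes of the pathway had a median of 1197 bp covered before the start and 1396.5 bp after it in the wild type, and 1094 and 1380 bp in the knockout. Over all marked genes with a strand the medians were 1017 and 1450 bp in the wild type, and 978 and 1458 bp in the knockout. The lean into the gene was thus not particular to the pathway and was larger over all genes. In the window 83 of 89 marked genes (93.3%) held a single region in wild-type and 86 of 90 (95.6%) in knockout cells, against 86.4% and 87.9% of all marked genes. The profile of coverage around the start shows nearly every gene covered at the start itself, and a steep fall by 2000 bp inside the gene, where the average over all genes kept more coverage.

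**Figure D3:**
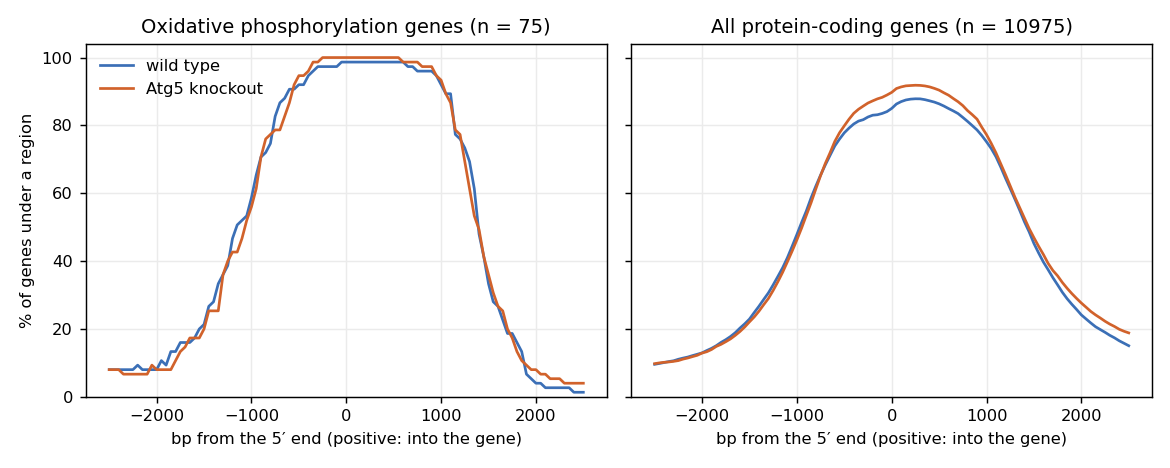
Percent of genes under an H3K4me3 region (y axis) by distance from the 5′ end (bp, x axis, positive into the gene), for the 75 oxidative phosphorylation genes with a known strand and a region in at least 1 list (left) and for all 10975 such protein-coding genes (right), in the wild-type and the knockout library. At the start 98.7% of the pathway's genes were covered in wild-type and 100% in knockout cells, against 85.0% and 89.7% of all genes; at 2500 bp into the gene the pathway's values were 1.33% and 4%, against 15.1% and 18.8%.

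Complex I, the NADH dehydrogenase, has a peripheral arm with an NADH-oxidising N module and a ubiquinone-reducing Q module, and a membrane arm that pumps protons. Of its 39 genes 37 were marked in each list. In the N module 3 of 10 genes were longer and 7 shorter in the knockout, with a median difference of -234.5 bp. In the Q module 1 of 5 was longer and 4 shorter, at a median of -277 bp, and among the remaining 24 genes 8 were longer and 14 shorter, with a median of -23.5 bp. The longest gain was at Ndufv2, which encodes an iron-sulphur subunit of the N module, with 2575 bp in wild-type and 3003 bp in knockout cells. Ndufa13, a supernumerary subunit also known as GRIM-19, had 3367 and 3700 bp. The longest losses were at Ndufc1, a small membrane arm subunit, with 2175 bp in wild-type and 1587 bp in knockout cells, and at Ndufa6, a subunit of the LYR family, with 3118 and 2577 bp. The Ndufc1 region was shortened at both ends, by 261 bp before the start and 327 bp after it. Ndufb4b and Ndufb4c, copies of the membrane arm gene Ndufb4, were at 0 bp in both lists, while Ndufb4 had 2247 and 1942 bp. How the authors treated reads that match several copies is not given in the sources used here.

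Of the 8 assembly factors of complex I, 3 were longer and 5 shorter in the knockout. Ndufaf5, which hydroxylates an arginine of Ndufs7, had 3491 bp in wild-type and 2975 bp in knockout cells. Its partner Ndufaf8 had 2611 and 2743 bp. Ndufaf7, a methyltransferase that acts on a complex I subunit, had 2212 and 2459 bp, and Ndufaf3, an early assembly factor, had 4150 and 3985 bp. The Ndufaf5 start lies 88 bp from that of Esf1 on the opposite strand, so its upstream coverage is shared with that gene.

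Complex II, succinate dehydrogenase, links the tricarboxylic acid cycle to the respiratory chain, and its 4 genes did not share a direction. Sdha encodes the flavoprotein that oxidises succinate, and lies on the minus strand at chr13:74322255-74350240. Its region spanned chr13:74348974-74351622 in wild-type and chr13:74348406-74351992 in knockout cells, which is 2649 against 3587 bp. The knockout region was longer by 370 bp before the start and by 568 bp inside the gene. The start of Ccdc127 lies 77 bp away on the opposite strand, so the upstream part of the region is the start of that gene too. Sdhb, the iron-sulphur subunit, lies on the plus strand at chr4:140961271-140979198 and went the other way, with 2861 bp in wild-type and 2345 bp in knockout cells. The membrane anchors gave smaller differences, with 2826 and 2910 bp at Sdhc and 3152 and 2937 bp at Sdhd. Within 1 kb of the start Sdha was fully covered in both lists and did not differ, and Sdhb differed by -155 bp. Within 5 kb the Sdhb difference was -268 bp.

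Complex III, the cytochrome bc1 complex, had all 9 genes marked and none that differed by 500 bp. Cyc1, which encodes the haem subunit cytochrome c1, had 1805 bp in wild-type and 1852 bp in knockout cells. The core protein genes Uqcrc1 and Uqcrc2 had 2035 and 1887 bp, and 2617 and 2773 bp. The longest gain was at Uqcr11, a small subunit, with 2379 and 2635 bp, and the longest loss at Uqcrb, which helps to bind ubiquinone, with 2522 and 2252 bp. Within 1 kb of the start the Uqcr11 difference had the other sign, at -75 bp. Uqcrh, the hinge protein that contacts cytochrome c1, had the longest coverage of the pathway in both lists, and its start lies 199 bp from that of Lrrc41 on the opposite strand. Uqcrh was singled out after its values were seen.

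Complex IV, cytochrome c oxidase, is where the pathway's tissue isoforms are concentrated. Of 8 genes for isoforms restricted to certain tissues or conditions, 2 were marked in wild-type and 3 in knockout cells. Of 7 widely used partners, all were marked in both. Cox4i1 had 3461 bp in wild-type and 3217 bp in knockout cells, while the lung and hypoxia isoform gene Cox4i2 had 0 bp in both. Cox6a1 had 2496 and 2634 bp, and the heart and muscle gene Cox6a2 had none. Cox7a2 had 2389 and 2367 bp, and its heart and muscle counterpart Cox7a1 was marked in both lists, with a short region of 1069 and 939 bp. Cox7b had 2921 and 2205 bp and the testis gene Cox7b2 none. Cox8a had 2388 and 2724 bp, and neither the heart and muscle gene Cox8b nor the testis gene Cox8c had any. Ndufa4, first assigned to complex I and now counted with complex IV, had 3249 and 3512 bp. Its hypoxia-induced relative Ndufa4l2 had 2196 and 1904 bp. No strand was known for Ndufa4l2, so its 5′ end was set at the gene boundary with more coverage in these lists. Part of Stac3 lies in that window.

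Cox6b2 was the only gene of the pathway marked in 1 genotype alone. Its knockout region, chr7:4751988-4753378, covered 1391 bp, with the summit 262 bp inside the gene, and the wild type had 0 bp. Part of another protein-coding gene, Fam71e2, lies in the Cox6b2 window. The summit held 20 reads, and the authors' fold over local background was 5.80, at percentile 5.61 of all marked genes in that list. It was absent when only the 20000 regions of highest q value were kept in each list. The widely used partner Cox6b1 had 2135 bp in wild-type and 2153 bp in knockout cells, with folds of 39.0 and 48.4. The region at Cox6b2 was thus near the weak end of the knockout list.

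The promoters of these pairs differ in CpG, the dinucleotide that H3K4me3 usually follows, and they are printed to show the contrast between a marked and an unmarked or weakly marked isoform gene. Each line gives the 250 bases before the start from RefSeq (GRCm38.p6), 5′ to 3′ on the gene's strand, with CpG in capitals.
Cox8a (chr19:7217617-7217866, minus strand): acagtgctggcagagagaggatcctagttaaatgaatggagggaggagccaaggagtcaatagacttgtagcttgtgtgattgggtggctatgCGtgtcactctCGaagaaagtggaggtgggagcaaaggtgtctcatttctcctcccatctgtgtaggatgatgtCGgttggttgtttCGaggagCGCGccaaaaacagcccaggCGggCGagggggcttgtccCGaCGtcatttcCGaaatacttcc
Cox8b (chr7:140900447-140900696, minus strand): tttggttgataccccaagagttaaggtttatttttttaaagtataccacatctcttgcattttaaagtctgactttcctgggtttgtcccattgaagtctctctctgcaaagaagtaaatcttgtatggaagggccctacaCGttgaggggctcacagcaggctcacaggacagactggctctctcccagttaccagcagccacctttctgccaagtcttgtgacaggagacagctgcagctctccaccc
Cox6b1 (chr7:30626115-30626364, minus strand): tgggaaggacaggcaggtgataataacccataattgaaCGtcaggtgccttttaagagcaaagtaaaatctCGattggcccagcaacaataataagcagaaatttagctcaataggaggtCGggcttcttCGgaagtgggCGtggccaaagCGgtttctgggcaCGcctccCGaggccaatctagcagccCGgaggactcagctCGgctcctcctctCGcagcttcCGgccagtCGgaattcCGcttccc
Cox6b2 (chr7:4753095-4753344, minus strand): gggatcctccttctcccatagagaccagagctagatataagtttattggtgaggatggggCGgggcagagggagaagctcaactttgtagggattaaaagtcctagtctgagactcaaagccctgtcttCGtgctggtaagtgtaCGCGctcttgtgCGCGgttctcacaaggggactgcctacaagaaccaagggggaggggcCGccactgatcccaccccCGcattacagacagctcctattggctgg
Cox8a has 11 CpG in this stretch and Cox8b has 1. Cox6b1 has 14 and Cox6b2 has 8. Over the pathway's promoters, counted from 250 bases before to 50 bases after the start, the median was 20 CpG in the 75 with a region in either list. The 3 without a region and with a promoter sequence held 2 to 10 CpG. The order was the other way for Cox7b, which has 5 CpG in the 250 bases before its start and was marked, and Cox7b2, which has 9 and was not.

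The largest differences in complex IV apart from Cox6b2 were a gain at Cox7a2l and a loss at Cox7b. Cox7a2l, whose product is known as a supercomplex assembly factor, lies on the minus strand at chr17:83501917-83514333. It had 2891 bp in wild-type and 3437 bp in knockout cells, and 507 bp of the gain lay inside the gene. Cox7b, a small subunit on the plus strand of the X chromosome, had 2921 and 2205 bp. The difference was -716 bp, of which -638 bp lay before the start. In both lists a second region upstream of Cox7b reached into the window, further in the wild type, and the region at the Cox7b start itself was 2259 bp wide in wild-type and 2104 bp in knockout cells. Within 1 kb of the start the differences were 0 bp at Cox7a2l and -77 bp at Cox7b.

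Complex V, the ATP synthase, had all 17 genes marked. The catalytic head genes differed in opposite directions, with 2954 bp in wild-type and 3243 bp in knockout cells at Atp5a1 (alpha subunit), and 3083 and 2785 bp at Atp5b (beta subunit). Within 1 kb they differed by -29 and 0 bp. Atp5h, subunit d of the peripheral stalk, lies on the minus strand at chr11:115415691-115419919 and had the longest gain, with 3095 and 3721 bp. That gain lay before the start, where coverage was 1754 bp in wild-type and 2429 bp in knockout cells. The start of Kctd2 lies 207 bp away on that side. Atp5o, the stalk subunit that confers oligomycin sensitivity, had 2169 and 2592 bp. Atp5g1, 1 of 3 genes for the ring-forming subunit c, had the second loss after Atp5b, with 3189 and 2961 bp.

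The level of the mark was high at most of these genes within each list. The level was taken as the authors' fold of reads over local background at the highest summit within 2.5 kb, and it was ranked among all marked protein-coding genes of the same list. The median fold was 34.8 in the wild type, against 28.3 for all marked genes, and 40.6 in the knockout, against 32.1. The median percentile of the pathway's genes was 73.9 in wild-type and 76.9 in knockout cells. By complex, complex I stood at 84.7 and 83.5 and complex IV at 53.7 and 62.1. A high level was not particular to the pathway. Other assembly factors and carriers stood at 83.4 and 78.8, and genes of the mitochondrial ribosome at 70.5 and 71.9. Proteasome genes stood at 71.9 and 72.7, and glycolysis genes at 60.3 and 58.5. A percentile ranks genes within 1 list, and its differences between the lists were not tested or read as a change. Whole reads at the summit could be recovered from the fold and the p value, and their median was 135 in wild-type and 148.5 in knockout cells. Over all marked genes the medians were 111 and 117 reads.

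By the mean of its ranks in both lists, Ndufb2, a membrane arm subunit of complex I, stood highest, with 220 reads and a fold of 54.0 in wild-type and 199 reads and 55.3 in knockout cells. Cox7a2l came next by this mean rank, with 199 and 210 reads. Neither gene led both lists, since Ndufa2 had the highest fold in the knockout, at 58.9, against 44.7 in the wild type. The lowest mean ranks among genes marked in both lists were those of Ndufa1, an X-linked subunit needed to assemble the membrane arm, and Ndufa4l2. Ndufa1 had 39 reads and a fold of 10.4 in wild-type and 58 reads and 16.3 in knockout cells, at percentiles 17.5 and 21.0. Ndufa4l2 had 47 and 49 reads, at percentiles 19.5 and 17.7. When only the 20000 regions of highest q value were kept in each list, Ndufa1 lost its wild-type region and kept the knockout one. Ndufaf3 had no wild-type summit in the window, although it was covered, and was left out of the wild-type levels.

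**Figure D4:**
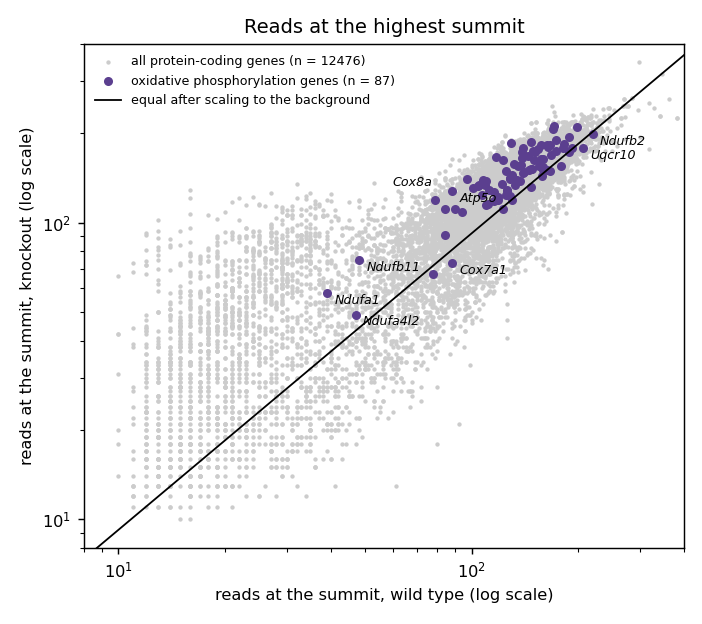
Reads at the highest summit within 2.5 kb of the 5′ end in the wild-type library (x axis, log scale) and in the knockout library (y axis, log scale), for the 87 oxidative phosphorylation genes (purple) and all 12476 protein-coding genes (grey) with a summit in both. The line marks equal reads after scaling to the genome-wide background of each library; most of the pathway's genes lie at the upper right, and Ndufa1, Ndufa4l2 and Ndufb11 lie lowest among those named.

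Some promoter features that the choice of genes did not use were more frequent in the pathway than over all genes, each in a minority of its promoters. Head to head here means 2 protein-coding starts within 1 kb on opposite strands, the minus-strand start at the lower coordinate. Pairs of genes that overlap at their starts were not counted. Of 78 genes with a promoter sequence, 21 (26.9%) started head to head with another gene. This stood beside 7.61% of all 17273 promoters and 11.7% of those with a region. The share was 33.3% for the mitochondrial ribosome, 32.3% for other assembly factors and carriers, 15.2% for the proteasome and 0% for glycolysis. Partners included Mrpl47 of the mitochondrial ribosome at Ndufb5, 308 bp away, and Timm8b, a mitochondrial import chaperone, at Sdhd, 52 bp away. Both were named for their mitochondrial products, and the share of partners with such products was not counted. Other partners included Rps28 at Ndufa7, 10 bp away, Kbtbd4 at Ndufs3, 19 bp away, and Cpsf2 at Ndufb1, 236 bp away. The 21 head-to-head genes had a median of 3086 bp covered in wild-type and 2952 bp in knockout cells, while the 53 other genes marked in both lists had 2433 and 2367 bp. The extra length lay before the start, with 1486 against 1017 bp in the wild type. The same held over all genes, where head-to-head starts had 2988 bp and the others 2537 bp in the wild type. In all, 51 of the 97 windows held part of another protein-coding gene, so coverage there is not the pathway gene's alone.

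Motifs of factors known to control mitochondrial genes were counted in the 300 bases around each start, on both strands. The core of NRF1, nuclear respiratory factor, was searched as GCGC, any base, then TGCGC, which includes the palindrome of GCGC followed by ATGCGC. It was present in 18 of 78 promoters (23.1%), against 6.74% of all promoters and 10.1% of those with a region. The ETS motif CCGGAAG, which the factor GABP binds, was in 18 (23.1%), against 12.1% and 17.6%. The YY1 motif AAGATGGCG was in 7 (8.97%), against 1.92% and 2.93%, and each of the 7 began 10 to 35 bases after the start. The SP/KLF box GGGCGG was in 35 (44.9%), against 46.9% and 64.7%. At least 1 of the first 3 motifs was in 37 promoters (47.4%), against 18.8% of all and 27.7% of those with a region. Promoters of the mitochondrial ribosome gave 18.8% for NRF1, 34.8% for ETS and 11.6% for YY1. The other assembly factors and carriers gave 9.68%, 41.9% and 9.68%, and the proteasome 18.2%, 30.3% and 6.06%, so the ETS share was higher in all 3 of these lists than in the pathway. The 22 glycolysis promoters were below the pathway for each, at 9.09%, 4.55% and 0%. A match is a description of the letters, not of binding.

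The NRF1 cores before the start are printed for the 5 genes with the full palindrome, of which Cox6a1 holds a second core, and for Sdha, the gene with the longest gain among those marked in both lists, which holds 3 cores. Sequences are from RefSeq (GRCm38.p6), 5′ to 3′ on the gene's strand, with the core in capitals.
Atp5g2 (chr15:102671065-102671104, minus strand): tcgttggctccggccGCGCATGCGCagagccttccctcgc
Atp5k (chr5:108434425-108434464, minus strand): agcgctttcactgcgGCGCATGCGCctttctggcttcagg
Cox6a1 (chr5:115349096-115349135, minus strand): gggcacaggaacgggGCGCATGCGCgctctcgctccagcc
Cox6a1 (chr5:115349051-115349090, minus strand): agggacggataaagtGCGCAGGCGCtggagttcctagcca
Ndufa11 (chr17:56717687-56717726, plus strand): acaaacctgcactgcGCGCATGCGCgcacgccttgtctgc
Ndufaf4 (chr4:24897955-24897994, plus strand): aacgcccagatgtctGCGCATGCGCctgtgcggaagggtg
Sdha (chr13:74350314-74350353, minus strand): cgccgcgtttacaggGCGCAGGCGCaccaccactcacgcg
Sdha (chr13:74350271-74350310, minus strand): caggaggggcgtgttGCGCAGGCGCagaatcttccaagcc
Sdha (chr13:74350241-74350265, minus strand): cccgcgcgactcggtGCGCAAGCGC
Atp5g2 encodes a form of subunit c, Atp5k subunit e of the ATP synthase membrane part, Ndufa11 a membrane arm subunit and Ndufaf4 an assembly factor. The palindrome genes did not share a direction, with 3870 bp in wild-type and 3757 bp in knockout cells at Atp5g2, 1670 and 1575 bp at Atp5k, 2961 and 2952 bp at Ndufa11, 2717 and 2708 bp at Ndufaf4, and a longer region in the knockout at Cox6a1. These 4 genes other than Cox6a1 were chosen for their sequence. Over the 18 genes with an NRF1 core, 7 were longer and 11 shorter in the knockout, with a median difference of -26.5 bp, and over the 56 others marked in both lists 22 were longer and 34 shorter, with -25 bp.

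**Figure D5:**
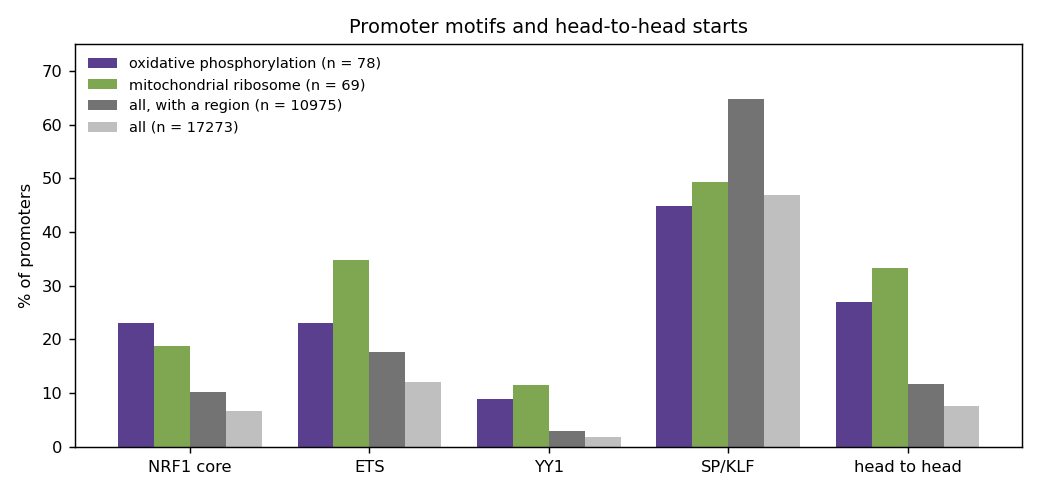
Percent of promoters (y axis, from 0) that hold each motif on either strand, or that start head to head with another gene within 1 kb, for the 78 oxidative phosphorylation genes, 69 genes of the mitochondrial ribosome, all 10975 protein-coding promoters with an H3K4me3 region in either list and all 17273 promoters. The pathway's bar is above both sets of all promoters for NRF1, ETS, YY1 and head-to-head starts, and below both for the SP/KLF box.

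Genes that work with the pathway were described from lists of their own. All 36 other assembly factors and carriers were marked in both lists, 14 longer and 22 shorter in the knockout, with a median of -65.5 bp. The extremes were Sdhaf1, an assembly factor of complex II, with 2400 bp in wild-type and 3048 bp in knockout cells, and Uqcc2, which serves complex III, with 3295 and 2649 bp. Cox16 had 2169 and 2664 bp, and Sco2, which delivers copper to complex IV, had 2406 and 1795 bp. Of 17 regulators of mitochondrial biogenesis 16 were marked in each list, 7 longer and 9 shorter. Polg2, the accessory subunit of the mitochondrial DNA polymerase, had 3774 and 4436 bp, Tfam, which packages mitochondrial DNA, 3512 and 3669 bp, Polrmt, its RNA polymerase, 2427 and 2155 bp, and the coactivator gene Pprc1 3270 and 2606 bp.

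The mitochondrial ribosome, whose products translate the subunits encoded in mitochondrial DNA, resembled the pathway in its counts. Its genes were taken by symbol alone, as Mrpl or Mrps followed by a digit. All 78 of them were marked in both lists, 27 longer and 50 shorter in the knockout. The median difference was -79.5 bp, and 2 genes were past 500 bp in each direction. Its longest gains were at Mrpl58 (1913 and 2499 bp) and Mrpl15 (2044 and 2569 bp), and its longest losses at Mrpl49 (3703 and 3143 bp) and Mrpl3 (2457 and 1915 bp). Of 23 glycolysis genes 22 were marked in each list, 9 longer and 13 shorter, with a median of -12 bp. Pdk1, the kinase that keeps pyruvate out of the tricarboxylic acid cycle, had 2404 and 3312 bp, Ldhb 1221 and 1749 bp, Pfkl 3502 and 3038 bp, and Tpi1 3052 and 2598 bp. Among 40 genes with proteasome symbols, which include the recombination factor gene Psmc3ip, 38 were marked in wild-type and 37 in knockout cells, 17 longer and 21 shorter, with a median of -24.5 bp. The immunoproteasome genes Psmb8 and Psmb9 had the longest gains, with 2479 and 4704 bp and 3781 and 4583 bp, and Psmb11 (672 and 0 bp) and Psmd13 (3065 and 2536 bp) the longest losses. No difference between any of these lists and the pathway was tested.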

How the data were processed

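H3K4me3 ChIP-seq of 2 libraries (1 wild type, 1 Atg5 knockout) was used, and the other 4 samples of the series were not analysed here. Per the submitters' processing notes, MACS2 called the regions on GRCm38 (mm10). The aligner, read filters, any input control and the MACS2 version are not given in sources used here. The deposited fold is a ratio of reads at the summit to a local background. Whether that background came from the same library or from an input sample is not given. Each summit also has a deposited −log10 p and −log10 q. The deposited score was not used. Library depth is not stated in the lists, and covered length depends on depth and on the calling threshold.

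The 5′ end was the outermost start in a RefSeq promoter table (78 genes) or, for the 19 genes without one, the gene boundary with more covered length. Among the 75 covered genes with a start, that boundary lay within 1 kb of it for 67. Exon and intron positions were not used here. Values of 1 gene are not reported here; it is part of the counts. A gene was marked if a region lay within 1 kb. Whole summit reads were recovered from the deposited fold and −log10 p (tolerance 0.001) for 99.98% of wild-type and 99.99% of knockout summits, with fold = (reads + 1)/(background + 1). The lowest summit held 10 reads in each list, and the lowest deposited −log10 q was 2.00 and 2.02. The genome-wide background was 2.85 and 2.62 reads.

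With 1 library per genotype no test was made; shares carry exact (Clopper-Pearson) 95% intervals. The members and lists were chosen with earlier results of these data known. Members were named if marked in 1 list or neither, if among the 2 longest gains or losses of a class or the 2 highest or lowest folds, if tissue isoforms or their partners, or if genes of complex II, Cyc1 or the catalytic head of complex V; each other list gives its 2 longest gains and losses. Any further gene was chosen after its values were seen or for its sequence. All computing was done in Python 3.11.15 with pandas 2.3.3, NumPy 2.4.6, Matplotlib 3.10.9 and SciPy 1.17.1, and the measures were tested on simulated data. Alternatives varied the region threshold, the 5′ end, the windows and the joining of regions.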

Additional observations from a re-analysis of the deposited data

How the results depend on the processing

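The counts of marked genes kept within 1.5 times their value under all settings tried: regions with a −log10 q of at least 5 or 10, the 20000 strongest regions per list, other windows, the boundary by coverage, and, added after the data were seen, only the 78 genes with a known strand. Among marked genes with a summit in the window, the lowest −log10 q at the highest summit was 10.1, at Cox6b2 in the knockout. The q settings could therefore say little about these counts. The counts of longer and shorter genes also kept within 1.5 times their value, except where the covered length was measured within 1 kb. There 20 genes were longer and 27 shorter, 1 gene was longer and 0 were shorter by at least 500 bp, and the median difference was 0 bp. Of all 21627 protein-coding genes, 4603 were longer and 4779 shorter there, with 1084 and 341 differing by at least 500 bp. Their median difference was also 0 bp. Within 5 kb, 8 of the 97 genes were longer by at least 500 bp, as were 3031 of all 21627 protein-coding genes. The cause of the count within 5 kb was not tested; within 1 kb a window fully covered in both lists cannot differ. For the named genes 255 recomputed differences in covered length did not move and 39 did, and no difference of at least 500 bp changed sign. The named genes include the 7 marked in neither list, and a difference that stayed at 0 bp counts as not moved. Leaving out a library was not possible with 1 per genotype. No paired analysis was possible because each genotype has 1 library. Depth is not stated in the lists, so its part in any difference of length was not tested.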

Other observations

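Summit reads can be set against the genome-wide background of each library, 2.85 reads in wild-type and 2.62 in knockout cells, and the ratio of these scaled reads, knockout over wild type, is given here as a value only. For the 87 genes of the pathway with a summit in both lists the median ratio was 1.18, with quartiles of 1.09 and 1.30, and over all 12476 such genes it was 1.16, with quartiles of 1.02 and 1.34. The ratio was under 1 for 11 of the 87 (12.6%) and for 22.5% of all such genes. The exact 95% interval, which covers counting error only, left out the median of all genes for 7 of the 87 genes (8.05%) and for 21.7% of all such genes, so the pathway's share was below the background. Ndufb11 was at 1.70 (48 and 75 reads), Cox8a at 1.64 (79 and 119), Atp5o at 1.58 (88 and 128), Cox6a1 at 1.57 (97 and 140), Ndufs8, an iron-sulphur subunit of complex I, at 1.56 (129 and 185), and Ndufb4 at 1.55 (117 and 167). Uqcr10, a small subunit of complex III, was below, at 0.939 (206 and 178 reads). These genes were picked by their values.

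Of the X-linked genes of the pathway, Ndufa1 (ratio 1.62) and Ndufb11 had low reads in both libraries, and Cox7b (ratio 1.19, 116 and 127 reads) did not. Over 359 X-linked genes the median was 70 reads in wild-type and 73 in knockout cells, against 113 and 122 over 12117 autosomal genes. A ratio of at least 1.5 was found at 23.4% of the X-linked and 14.3% of the autosomal genes.

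The gene table also holds 19 pseudogene copies of the pathway's genes. A region overlapped the body or the 1 kb around it for 1 of them in each list, Atp5l2-ps, with 387 bp in wild-type and 348 bp in knockout cells.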
